A study of Toxocara canis with 2 samples.

Results

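Hexokinase transfers phosphate from ATP to glucose. The product, glucose-6-phosphate, cannot leave the cell by the glucose transporters and is the shared starting point of glycolysis, glycogen and trehalose storage, the pentose phosphate route and, through hexosamines, chitin. Adult ascarid worms store glycogen and ferment it in the gut, where oxygen is scarce, and female ascarids also build chitin into the eggshell.

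In Toxocara canis, the roundworm of dogs, 7 unigenes annotated as hexokinase were examined. A unigene is an assembled transcript, and those of related sequence carry a shared cluster name (CL) with a contig number. The 7 were listed by name, and they carry the KEGG definition hexokinase (EC 2.7.1.1) in the authors' deposited comparison, which holds 21280 of the 70267 unigenes seen in either library. That table holds only unigenes selected on the ratio of their FPKM in these same libraries and its FDR, so each of the 7 differed by selection, and their differences are given as descriptions. The same definition was carried by 16 unigenes of the table, and the other 9 are described further on. The lowest mean level among the 7 was 1.55 FPKM (CL2756.Contig1), and the highest mean among the 9 was 0.599 FPKM (CL2756.Contig2). FPKM divides the fragments of a unigene by its kilobases and by the depth of the library, so levels of different unigenes are compared per length. The files add the suffix _All to every name, which is written here only where a copy is first described in full.

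The study asked which genes are transcribed differently by adult male and female worms. The male group is the whole body of 1 adult male and the female group the whole body of 1 adult female, both of the strain labelled Rongchang, and no treatment is given in the labels. Poly-A RNA was sequenced as 1 library per sex, and the male and female libraries held 18.4 M and 19.8 M fragments. Without replicates no test was possible, the differences have no replicate check, and the 95% intervals, exact except for summed FPKM, cover counting error only. The labelled sexes were checked with sperm proteins and the yolk precursor vitellogenin. The 25 unigenes described as major sperm protein or MFP2 took 2.84% of male and 0.00105% of female fragments, and the 3 described as vitellogenin took 0.0490% of male and 8.28% of female fragments. In whole worms the presence of sperm or eggs cannot be told apart from sex, nor fewer cells of a type from less RNA per cell. Best hits in Trypanosoma or in dog, which occur elsewhere in the table, were found for 0 of the 7.

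The copies fell on opposite sides. Of the 7, 4 were more abundant in the male library (the male side) and 3 in the female library (the female side). In the deposited comparison 9435 of 21280 unigenes (44.3%) were on the female side, so the split is near that share and is not particular to hexokinase. In the male library a single copy, Unigene21949, held 92.7% of the summed hexokinase FPKM. In the female library it held 3.12%, and Unigene11139 held 57.5%, Unigene8978 29.1% and CL4436.Contig1 9.71%.

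Unigene21949_All, of 2368 bases, was the most abundant hexokinase copy of either library. It had 17213 fragments in the male library (396 FPKM, exact Poisson interval 390 to 402) and 363 in the female library (7.75 FPKM, 6.97 to 8.59). The male level was 51.1-fold higher (Clopper-Pearson interval 46.0 to 56.8), and it ranked 285 among 64618 unigenes seen in the male library and 10866 among 58435 in the female library. Its best hit was a hexokinase of the filarial worm Wuchereria bancrofti.

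The other 3 male-side copies were low in both libraries. Unigene2387_All had 232 male and 12 female fragments, or 6.07 FPKM (5.31 to 6.90) against 0.291 FPKM (0.151 to 0.509), and its male level was 20.8-fold higher (11.7 to 40.9). Unigene41327_All had 155 male and 24 female fragments, or 7.33 FPKM (6.22 to 8.58) against 1.05 FPKM (0.675 to 1.57), and its male level was 6.96-fold higher (4.51 to 11.2). CL2756.Contig1_All had 180 male and 0 female fragments. Its male level was 3.10 FPKM (2.66 to 3.58), and a female count of 0 allows up to 0.0479 FPKM at 3 fragments, which puts the male level at least 64.7-fold above the female. A female count of 0 was common in the deposited comparison, where 6538 of the 11845 unigenes higher in the male library (55.2%) had none.

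On the female side, Unigene11139_All, of 1253 bases, was the most abundant. It had 106 male and 3536 female fragments, or 4.61 FPKM (3.77 to 5.57) against 143 FPKM (138 to 147), and its female level was 30.96-fold higher (25.5 to 37.9). It ranked 651 among the unigenes seen in the female library and 15120 in the male library. Unigene8978_All, the shortest copy at 551 bases, had 35 male and 787 female fragments. Its level was 3.46 FPKM (2.41 to 4.81) against 72.2 FPKM (67.2 to 77.4), 20.9-fold higher in the female (14.9 to 30.2). CL4436.Contig1_All, of 2864 bases, had 338 male and 1365 female fragments, or 6.43 FPKM (5.76 to 7.15) against 24.1 FPKM (22.8 to 25.4). Its female level was 3.75-fold higher (3.32 to 4.23), the smallest ratio of the 7.

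**Figure D1:**
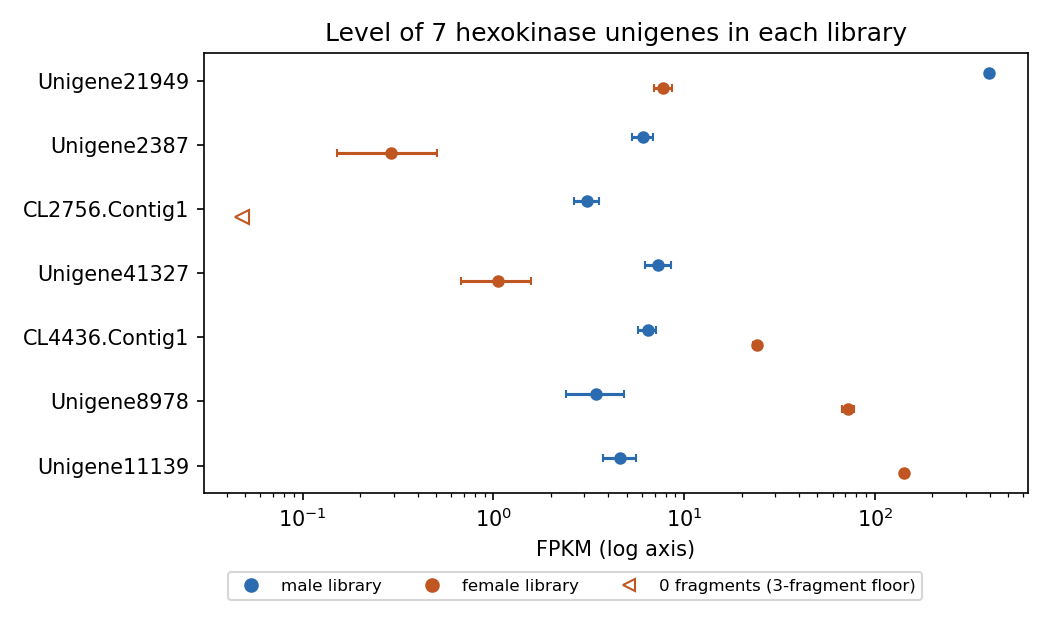
FPKM of the 7 hexokinase unigenes in the male library (blue) and the female library (orange) on a log axis, 1 library per sex, with exact Poisson 95% bars and an open triangle at the 3-fragment floor for a count of 0. Unigene21949 stands alone at 396 FPKM in the male library, where the other 6 copies lie between 3.10 and 7.33 FPKM, while the female library spreads from 0 to 143 FPKM.

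The order of the copies differed between the libraries. In the male library Unigene21949 was 54.0-fold above the next copy, Unigene41327. Below it came Unigene41327, CL4436.Contig1, Unigene2387, Unigene11139, Unigene8978 and CL2756.Contig1, and each of these overlapped its neighbour in counting interval. In the female library the order was Unigene11139, Unigene8978, CL4436.Contig1, Unigene21949, Unigene41327, Unigene2387 and CL2756.Contig1, and no neighbours overlapped. The female-side copies were thus within the range of the low male-side copies in the male library, at 3.46 to 6.43 FPKM, and above every male-side copy in the female library.

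A size rule was applied across all unigenes, which asked for 5 FPKM or more where the level was higher and for a difference of at least 2 on the scale log2((female FPKM + 1)/(male FPKM + 1)). This is 4-fold, and the added 1 makes the change of low unigenes look smaller than it is. In the male direction 3 of the 7 passed (Unigene21949 at -5.50, Unigene2387 at -2.45 and Unigene41327 at -2.02), against 4.5% of all unigenes and 14.8% of those in the deposited comparison. In the female direction 2 passed (Unigene11139 at 4.68 and Unigene8978 at 4.04), against 2.38% of all unigenes and 7.84% of those in the deposited comparison. CL2756.Contig1, at -2.03, missed the minimum level, and CL4436.Contig1, at 1.76, missed the fold. Because the copies were taken from calls of the same comparison, nothing is read from these shares. TMM scaling moved the size-rule calls over all unigenes from 3160 male and 1669 female to 3787 and 1224, and it left the 7 copies with 3 and 2 calls. Over unigenes seen in both libraries the median log2 ratio without the added 1 was 0.42 with library totals and 0.01 with TMM factors. With the added 1, TMM moved CL4436.Contig1 from 1.76 to 1.38 and the low copy Unigene41327 from -2.02 to -2.31.

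**Figure D2:**
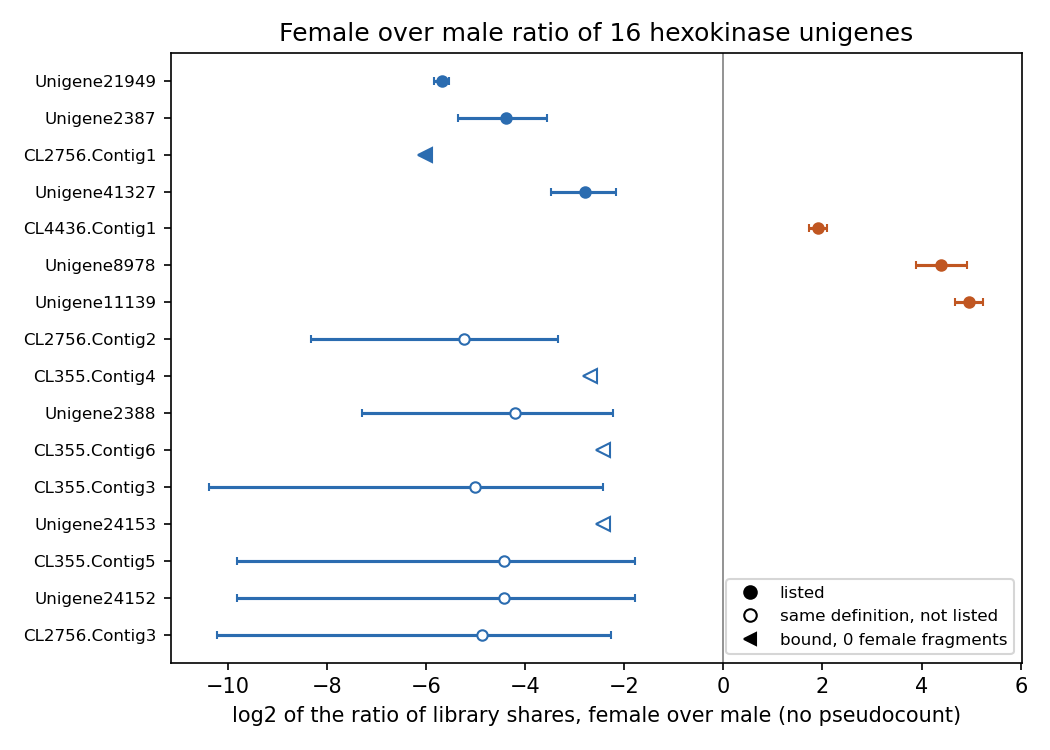
Log2 ratio of library shares, female over male and without a pseudocount, for the 16 unigenes with the hexokinase definition. Bars are Clopper-Pearson 95% intervals, and triangles are bounds at the 3-fragment floor where the female count was 0. The 3 unigenes to the right of 0 are CL4436.Contig1, Unigene8978 and Unigene11139, and the other 13 lie to the left.

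Summed over the 7 copies, the level was higher in the male library, by an amount that rested on Unigene21949. The sum was 427 male and 248 female FPKM, a log2 ratio of -0.78 (counting interval -0.83 to -0.74), or 1.72-fold higher in the male (1.67 to 1.78). Without Unigene21949 the sums were 30.99 male and 240 female FPKM, 7.75-fold higher in the female. The 4 male-side copies summed to 412 against 9.09 FPKM and the 3 female-side copies to 14.5 against 239 FPKM. As a share of fragments the 7 took 0.0994% of the male library (Clopper-Pearson 0.0980 to 0.101%) and 0.0308% of the female library (0.0300 to 0.0315%), a 3.23-fold difference. The ratio of fragments exceeds that of summed FPKM, and the abundant female copies Unigene11139 and Unigene8978 are shorter than Unigene21949. A sum of FPKM counts a transcript once for each of its pieces. Whether Unigene11139 and Unigene8978 are such pieces was not tested, and the female sum, its ratios and the shares of the copies depend on it.

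The best protein hits, which use sequence and not abundance, divided the copies along the same line. The deposited table gives the best match in Nr, the NCBI protein collection, with a bit score that grows with the length and closeness of the match. Hits were compared by name and species, so a shared name need not be a shared entry. The best Nr hits of the 3 female-side copies shared a name, hexokinase family protein of the filarial worm Brugia malayi. Their scores were 750 for CL4436.Contig1, 460.7 for Unigene11139 and 139 for Unigene8978. The male-side copies matched other entries. Unigene21949 (688.7 bits), Unigene2387 (572.8 bits) and Unigene41327 (357.8 bits) each had a best hit named hexokinase of Wuchereria bancrofti. CL2756.Contig1 (696.4 bits) matched a hexokinase of Loa loa, a related filarial worm.

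In KEGG, all 7 had the same Brugia malayi gene as best hit. A positive gap between the Nr and KEGG scores therefore follows wherever the best Nr hit is another entry, and the gap is given for its size and not as a further separation of the sides. For the female-side copies the Nr score exceeded the KEGG score by 0 to 1 bits. For the male-side copies the gap was 45.7 bits in Unigene21949, 43.4 in CL2756.Contig1, 32.8 in Unigene2387 and 18.8 in Unigene41327. Best-hit species alone did not divide the table this way. Of its unigenes with a best hit in Brugia malayi, 612 of 1332 (45.9%) were higher in the female library, against 445 of 849 (52.4%) for Wuchereria bancrofti, 1610 of 3270 (49.2%) for Loa loa and 9435 of 21280 (44.3%) over all.

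**Figure D3:**
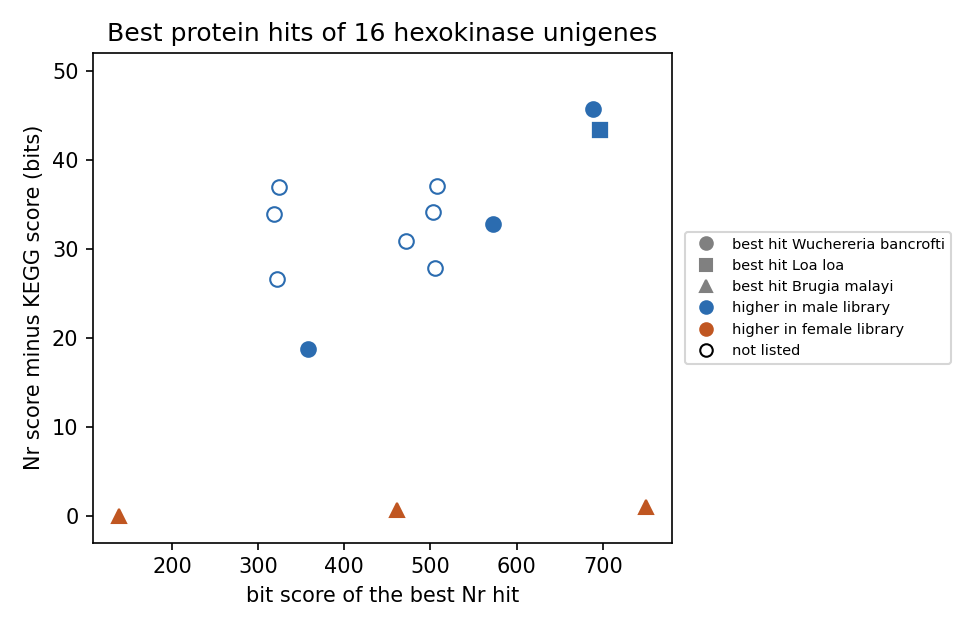
Nr bit score of the best hit (horizontal) against the Nr score minus the KEGG score in bits (vertical) for the 16 hexokinase unigenes, with shape for the species of the best hit, colour for the library with the higher level and open symbols for unigenes outside the 7. The 3 female-side unigenes lie at 0 to 1 bits and the 13 male-side unigenes at 18.8 to 45.7 bits; the 3 contigs of CL2756 share a single point.

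Best nucleotide hits, where given, also differed between the sides. They were a Haemonchus contortus hexokinase mRNA for CL4436.Contig1 and Unigene11139, and Loa loa hexokinase mRNAs for Unigene21949 and CL2756.Contig1. Unigene8978, Unigene2387 and Unigene41327 had no nucleotide hit. The remaining annotation did not separate the copies. All 7 were assigned the COG family hexokinase, and all 7 carried gene ontology terms for glycolysis, for glucokinase, fructokinase and mannokinase activity and for embryo development. Swiss-Prot placed 6 of the 7 closest to a mammalian hexokinase-2, with 438 bits for CL4436.Contig1 and 430 bits for Unigene21949 against the human protein. Unigene8978 was closest to a Drosophila hexokinase, at 97.1 bits. Lengths overlapped, from 1152 to 3166 bases on the male side and from 551 to 2864 bases on the female side. The number of unigenes is not a number of genes, and contigs of a cluster share sequence. No unigene sequences were used here, so whether Unigene8978 and Unigene11139 are pieces of a single transcript, or contigs of the same gene as CL4436.Contig1, was not tested, and counting could have split fragments among similar copies.

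The 9 further unigenes with the hexokinase definition were all higher in the male library and all low. Together they held 249 male and 8 female fragments, between 0.421 and 1.17 FPKM in the male library and at most 0.0572 FPKM in the female library, and 0 of the 9 passed the size rule. Their best hits were named hexokinase of Wuchereria bancrofti for 7 and hexokinase of Loa loa for 2, with score gaps between 26.6 and 43.4 bits. The 2 were CL2756.Contig2 and CL2756.Contig3, which had the same Nr, Swiss-Prot and KEGG scores as CL2756.Contig1. The 3 contigs of cluster CL2756 together held 277 male and 3 female fragments, a ratio of 99.5 (33.7 to 485), so the absence of female fragments from CL2756.Contig1 did not extend to the whole cluster. Cluster CL355 contributed 4 contigs of the 9, and its 9 contigs, of which the other 5 carry no hexokinase definition here, held 210 male and 12 female fragments. On the female side, cluster CL4436 had a second contig outside the deposited comparison (28 male and 53 female fragments), and the female share of the whole cluster was 3.60-fold the male share (3.20 to 4.04).

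The steps around hexokinase were taken from lists matched to KEGG enzyme numbers, or to descriptions for transporters, among the unigenes of the deposited comparison. Each listed unigene was therefore called by the authors, and members that did not differ are not seen. Beside the list counts that follow, 14.8% of the deposited comparison met the size rule in the male direction and 7.84% in the female direction. Glucose transporters, which bring in the substrate, had 4 of 11 unigenes on the male side and 7 on the female side, of which 2 and 3 met the size rule, in a table with 44.3% of unigenes on the female side. Their median log2((female FPKM + 1)/(male FPKM + 1)) over the 9 members averaging at least 1 FPKM was 1.07, beside -1.05 over all 17574 such unigenes of the table. The most abundant, Unigene6289, had 582 male and 56.6 female FPKM, 10.3-fold higher in the male (9.84 to 10.7), while Unigene21437 had 0.588 and 16.1 FPKM and was 27.5-fold higher in the female (17.4 to 45.9). The list of glucose-6-phosphatase and other sugar kinases held 3 unigenes, none of them a phosphatase, with galactokinase (CL4391.Contig3, 5.37-fold, 4.14 to 7.06) and ribokinase (CL6087.Contig2, 7.03-fold, 5.65 to 8.83) higher in the male library. An N-acetylglucosamine kinase definition (Unigene15883, whose Swiss-Prot hit is another enzyme) was 2.33-fold higher in the female (1.75 to 3.14). Their median over 3 members was -1.96, and 1 passed the size rule, in the male direction.

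Among enzymes of glycolysis after hexokinase and the opposing bisphosphatase, 5 of 12 unigenes were on the male side and 7 on the female side. The size rule was met by 2 male-side and 0 female-side members, and the median was 0.85. With 2 of 12, the male-side count is near the 14.8% of the table and is not a result about glycolysis. Summed over the 12, the level was 3130 male and 1387 female FPKM, so the sum and the median over these 12 point opposite ways. The median includes matches outside nematodes. A Trypanosoma protein was the best hit of 2 among the 12 and a protein of the ciliate Oxytricha trifallax that of Unigene38004 (0 male and 17 female fragments). The Trypanosoma matches are Unigene39687 and the outermost female member, Unigene39321, with 0 male and 50 female fragments (4.54 FPKM, 15.5-fold against a 3-fragment floor). Unigene39321, Unigene39687 and Unigene38004 all had 0 male fragments and count among the 7 on the female side. Their log2 values, from 1.61 to 2.47, lie above the median. Without these 3 the middle value of the rest is that of Unigene1530, -1.05, on the male side. The positive sign of the median thus rests on them. An enolase kept among the rest, Unigene40890, also had 0 male fragments, with 21 female fragments. No species was read from its best hit. The 2 unigenes that passed were a kinase and an aldolase. A 6-phosphofructokinase (Unigene9646), which adds the next phosphate, had 314 male and 0.636 female FPKM, 493-fold higher in the male (353 to 713). A fructose-bisphosphate aldolase (Unigene19481), chosen after its values were seen, had 367 and 2.22 FPKM, 165-fold higher (129 to 215). The male levels of these 2 and of Unigene21949 were of similar size, from 314 to 396 FPKM. As the aldolase was chosen with its values known, nothing is read from this likeness. A further aldolase (Unigene1530) was abundant in both libraries, at 1423 male and 687 female FPKM, 2.07-fold higher in the male (2.03 to 2.11).

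Storage and branch routes had copies on each side, in a table with 44.3% of unigenes on the female side. This is therefore not read as a trait shared with hexokinase. For glycogen and trehalose, 13 of 32 unigenes were on the male side and 19 on the female side, 4 and 5 of them past the size rule, with a median of 1.26 over 30 members. Glycogen phosphorylase (Unigene407), which releases glucose-1-phosphate from glycogen, had 63.6 male and 225 female FPKM, 3.54-fold more in the female (3.43 to 3.65). A UDP-glucose pyrophosphorylase (Unigene11980), which activates glucose for storage, was 17.1-fold higher in the female (13.6 to 21.7). Its levels were 2.13 male and 36.3 female FPKM. The other unigenes with its KEGG definition, chosen after their values were seen, went both ways. Unigene21766, the most abundant of them, had 79.99 male and 39.32 female FPKM, and CL4595.Contig1 had 28.89 and 9.08 FPKM. CL4595.Contig2 was higher in the female library, at 2.04 male and 9.3 female FPKM. Trehalase, which splits trehalose into glucose, had 8 of 14 unigenes higher in the male library, and Unigene30110 had 60.8 male FPKM and 2 female fragments, a ratio of 1107 (306 to 9144). In the pentose phosphate list 3 of 4 were on the male side and 1 on the female side, with 1 past the size rule on each and a median of -1.44 over 3 members. These included contigs of a single transaldolase cluster that pointed opposite ways. CL4729.Contig1 had 4.23 male and 118 female FPKM, 27.8-fold higher in the female (23.7 to 32.8), and CL4729.Contig3 had 17.5 and 0.460 FPKM, 38.0-fold higher in the male (23.9 to 64.6).

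The hexosamine and chitin list had 19 of 21 unigenes on the female side, 17 of them past the size rule, both male-side members past it too, and a median of 3.41. Of these, 9 carried the KEGG definition chitinase but were described in Nr as immunosuppressive ovarian message protein, and their Swiss-Prot hits included chondroitin proteoglycans. Most of the 9 are contigs of a single cluster, CL957. CL3770.Contig2 and CL3770.Contig4 also share a cluster, and both male-side members are contigs of cluster CL5033. The counts are therefore not counts of separate genes. The most abundant, CL957.Contig5, had 38.3 male and 21442 female FPKM, and the outermost, Unigene3521, 0.526 and 5003 FPKM. The outermost male member, CL5033.Contig2, was at 13.3 FPKM with 0 female fragments, 89.1-fold against a 3-fragment floor, and its Swiss-Prot hit is not a chitinase. The 8 members with definitions other than chitinase, enzymes that turn fructose-6-phosphate into UDP-N-acetylglucosamine or back and chitin synthases, were all on the female side, 7 of them past the size rule. Their log2 differences ran from 1.46 to 5.67 and their female levels from 3.78 to 133 FPKM, beside 24.1 to 143 FPKM for the 3 female-side hexokinases.

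**Figure D4:**
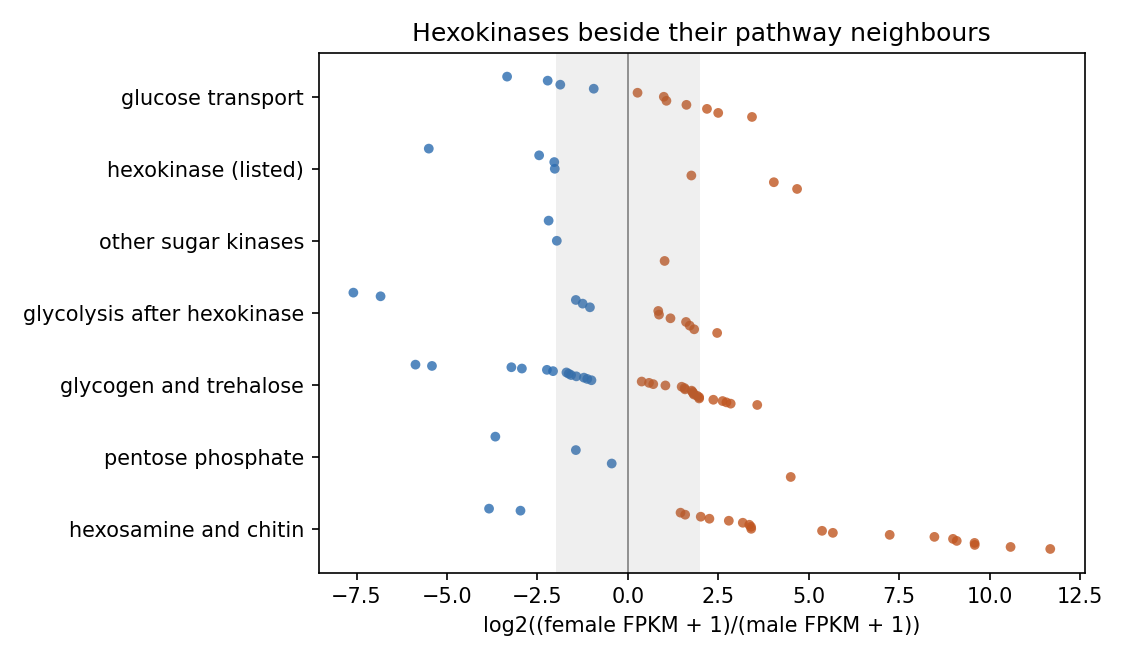
Each point is a unigene of the deposited comparison at its log2((female FPKM + 1)/(male FPKM + 1)), blue where higher in the male and orange where higher in the female library, by pathway list; the grey band marks differences under 4-fold. The 7 hexokinases run from -5.50 to 4.68, glycolysis after hexokinase reaches -7.59 on the male side, and 19 of 21 hexosamine and chitin unigenes lie on the female side.

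The unigenes with a level pattern most like the leading copies were found by distance in log2(FPKM + 1) over the 2 libraries, among described unigenes of the table. With 2 libraries such likeness is coarse. Nearest to Unigene21949 were an oxidoreductase with a sorbitol dehydrogenase match (Unigene147, distance 0.55), a C-type lectin match to CLEC-50 (Unigene16776, 0.63) and an MSP domain protein (Unigene21297, 0.79). Nearest to Unigene11139 were a serpin (Unigene37559, 0.33), a beta-tubulin (CL3402.Contig4, 0.50) and a haloacid dehalogenase-like hydrolase (Unigene7206, 0.58).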

How the data were processed

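The authors deposited, per the file headers, raw fragment counts and FPKM per unigene for each library, and a comparison of 21280 unigenes with a log2 ratio, p-value and FDR (all under 0.001, ratios at least 2-fold) and best database hits with bit scores. The assembler, aligner and counter were not given in the sources used here. Counts summed to the totals in the headers, and a unigene missing from a library was taken as 0. Deposited FPKM equalled count over length and library total to within 5.0e-05.

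The 7 copies and the pathway lists were chosen with earlier results of these data known. Ratios are of library shares, with exact 95% Clopper-Pearson intervals from counts, and a count of 0 was set to 3 fragments. The interval of summed FPKM used a normal approximation to Poisson error. Named pathway unigenes are the highest and the outermost in each direction per list, with a mean of at least 1 FPKM; others are said to be chosen after their values were seen. Described unigenes exclude hypothetical, predicted and locus-named proteins. A search of the descriptions for hexokinase found 0 unigenes beyond the 16 with the definition. The deposited p-values and FDR served only to describe the table. Alternatives were median-of-ratios and TMM scaling (edgeR 4.0.16), totals without the 10 most abundant unigenes, lengths less 150 bases, other thresholds and pseudocounts. For single copies the authors' deposited log2 ratio was a further alternative. Calculations ran in R 4.3.3 and in Python 3.11.15 with SciPy 1.17.1 and were tested on simulated counts.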

Additional observations from a re-analysis of the deposited data

How the results depend on the processing

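No paired analysis was possible because each sex has 1 library. Of the 49 alternatives computed for single copies, 21 moved a log2 value beyond its counting interval. These include every copy with a pseudocount of 10 FPKM and every male-side copy with the authors' deposited ratio, which has no added 1. Such alternatives change the scale of the value and not only the processing. The direction of a copy is no sign of stability, since pseudocounts and lengths cannot reverse it and the scalings move values by less than the smallest difference, 1.76. The size-rule counts of 3 male and 2 female copies were within 1.5 times under every alternative except an 8-fold threshold, which left 1 male copy. The log2 ratio of summed FPKM, -0.78, reversed to 2.95 without Unigene21949. It was -1.21 with median-of-ratios size factors, -1.20 with TMM factors, -0.71 with totals lacking the 10 most abundant unigenes of either library, -0.63 with lengths less 150 bases and -1.69 for counts over the library total. Lengths less 150 bases raised the size-rule calls over all unigenes to 6190 male and 3484 female. With all 16 hexokinase unigenes, an alternative chosen after seeing the data, the summed ratio was -0.81. Depth limits CL2756.Contig1, Unigene2387 and Unigene41327, whose female counts were 24 or fewer, and worm-to-worm variation cannot be measured with 1 library per sex.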

Other observations

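The gene table of the Toxocara canis assembly Toxocara_canis_adult_r1.0 names 6 genes with a hexokinase symbol (HK1, HK2 or HK3 in various spellings), beside the 16 unigenes with the hexokinase definition here. Of the 6, 2 are direct neighbours on the same assembled sequence (Tcan_03384 and Tcan_03391). The unigenes could not be assigned to these genes, because that needs unigene sequences, which were not used here.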
